A study of Mus musculus with 2 samples.

Results

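The genes of the Tet dioxygenases and the Dnmt DNA methyltransferases were described here by the 5-hydroxymethylcytosine (5hmC) peaks in and around them. A peak was taken as a member if its midpoint lay within 50 kb of 1 of 7 gene intervals set for Tet1, Tet2, Tet3, Dnmt1, Dnmt3a, Dnmt3b and Dnmt3l on mouse build mm9. This gave 100 of 121661 peaks: 51 of 57827 in the list recorded for the sample with ascorbic acid (AA, vitamin C), called the AA list, and 49 of 63834 in the other, called the no-AA list. The choice used position alone and no measured value. Mouse embryonic stem (ES) cells, strain 129SvEv, were the source of both libraries: 1 came from cells given 100 µM AA for 24 h, and the label of the other lists no agent. The design of the series sets cells with AA against cells without, so the second library was taken as the one without AA. Fragments that hold 5hmC were pulled down through a biotin tag and sequenced, and enriched regions (peaks) were called in each library by itself. The headers of both lists name the other sample, so each direction below holds for the lists as recorded and turns round if the headers are right.

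Tet enzymes oxidise 5-methylcytosine (5mC) to 5hmC and on to further products, using iron and 2-oxoglutarate, and ascorbic acid is known to support enzymes of this kind. Dnmt1 copies CpG methylation onto newly made DNA, Dnmt3a and Dnmt3b place methyl groups on unmethylated DNA, and Dnmt3l has no catalytic activity of its own and stimulates those last 2 enzymes. Mouse ES cells are known to express Tet1, Tet2, Dnmt3b and Dnmt3l at high levels and Tet3 at a low level. Expression was not measured here.

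Both enzyme families act mainly on cytosines in CpG dinucleotides, and the promoters of these 7 genes differ widely in how many they hold. All 7 genes were found among the RefSeq promoters of build GRCm38.p6, with 13 annotated starts. In the stretch from 250 to 51 bases before each start, CG (which reads the same on both strands) occurred 2 to 41 times, with a median of 10. Over all 32851 promoter entries the median was 4 and 89.1% held at least 1. The count was 41 at Tet2, 13, 32 and 34 at the starts of Dnmt3a, 15 at Dnmt3b, 10 at Tet1 and 8 at Tet3. The starts of Dnmt1 held 2, 3 and 21, and those of Dnmt3l 2, 2 and 3. A CpG-rich and a CpG-poor example are shown, with CG in capitals, from Dnmt3b (plus strand, chr2:153649199-153649398 on GRCm38.p6) and from the outermost start of Dnmt1 (minus strand, chr9:20959939-20960138 on GRCm38.p6). They hold the highest and the lowest count among the starts whose stretch lies wholly before the annotated gene.
Dnmt3b: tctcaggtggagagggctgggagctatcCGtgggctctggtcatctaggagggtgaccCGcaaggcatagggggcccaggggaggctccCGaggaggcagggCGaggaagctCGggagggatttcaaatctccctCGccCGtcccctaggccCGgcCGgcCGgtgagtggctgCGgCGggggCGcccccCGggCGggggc
Dnmt1: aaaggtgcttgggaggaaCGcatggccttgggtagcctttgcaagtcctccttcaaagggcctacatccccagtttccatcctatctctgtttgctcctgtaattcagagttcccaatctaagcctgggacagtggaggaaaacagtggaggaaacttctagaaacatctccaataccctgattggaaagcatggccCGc
Among all promoter entries 17.8% held at least as many CG as the Dnmt3b stretch, and 36.4% held at most as many as the Dnmt1 stretch. These positions are on another build than the peaks, so no peak was placed on a promoter, an exon or an intron. All peak positions below are on mm9.

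The libraries held 11907082 tags (AA) and 18398162 tags (no-AA) after the caller kept 1 tag per position, and the caller's fragment lengths were 229 and 165 bp. The 7 windows, each a gene interval with 50 kb on either side, spanned 1270 kb. Peaks there numbered 51 in the AA list (95% Poisson interval 38.0 to 67.1) and 49 in the other (36.3 to 64.8). The ratio of these numbers was 1.04 (0.689 to 1.57), beside 0.906 over all peaks of the lists, which lies inside that interval. With 1 library per group there was no replicate error and no test. Intervals cover counting error only, except that of the median ratio over pairs, which reflects the spread among pairs.

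The Tet and Dnmt windows carried more peaks per length than the genome at large in both lists. The density was 40.2 AA peaks per Mb against 21.9 over the autosomes and chromosome X, a ratio of 1.83 (1.36 to 2.41). In the no-AA list it was 38.6 against 24.2 peaks per Mb, a ratio of 1.60 (1.18 to 2.11). With flanks of 20 kb the ratio was 1.61 in the AA list and 1.46 in the other. With flanks of 100 kb it was 1.92 and 1.85, so the excess was not limited to the genes themselves. On the 6 chromosomes that hold the loci the densities were 21.7 and 23.3 peaks per Mb. Among peaks of a fold of at least 10 the ratio to the genome was 0.994 in the AA list and 0 in the other, and among those with a p of at most 1e-10 it was 2.20 and 0.706. Chromosome lengths were taken up to the last peak and include stretches without sequence. The members of the 2 families had like densities: the Tet windows had 38.3 and 36.6 peaks per Mb and the Dnmt windows 41.9 and 40.4, AA first.

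The number of peaks per length varied among the loci, and each number is small. Dnmt3b had the densest window in the AA list, at 64.7 peaks per Mb, and Tet2 in the no-AA list, at 54.6. The sparsest were Dnmt1 in the AA list, at 20.4, and Tet3 in the no-AA list, at 25.3. Windows of equal length tiled along the genome had a median of 2 to 5 AA and 2 to 6 no-AA peaks, depending on the length. Both numbers were above the median of their own tiles at every locus except Dnmt1, whose 3 AA peaks equalled it. The ratio of peak numbers, AA over no-AA, had an interval that included 1 at each of the 7 loci: the lowest was 0.429 at Dnmt1 (0.0715 to 1.88) and the highest 1.67 at Dnmt3l (0.324 to 10.7).

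**Figure D1:**
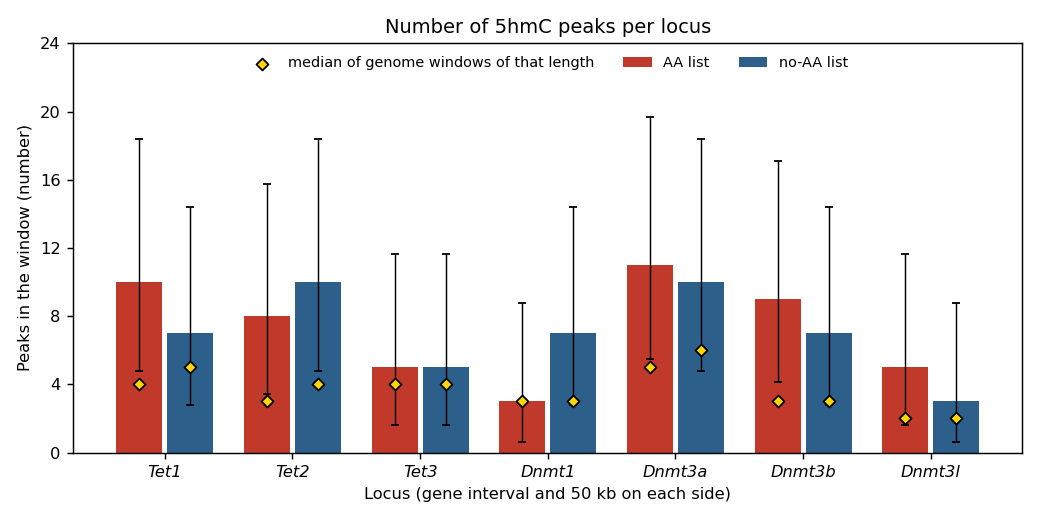
Number of peaks (vertical axis) in the window of each locus (horizontal axis), AA in red and no-AA in blue, with 95% Poisson intervals of counting error. Diamonds give the median of genome windows of the same length; Dnmt1 has 3 and 7 peaks, and every interval of a locus overlaps that of the other list.

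Peaks lay inside and beside the gene intervals at about equal density. Inside the 570 kb of gene intervals there were 22 AA and 21 no-AA peaks (38.6 and 36.8 per Mb), and in the 700 kb of flanks 29 and 28 (41.4 and 40 per Mb). The ratio of inside to flank density was 0.932 (0.510 to 1.68) in the AA list and 0.921 (0.497 to 1.68) in the other. By family, the AA list had 46.5 peaks per Mb inside and 30 in the flanks at the Tet loci. At the Dnmt loci it had 29.7 inside and 50 in the flanks. In the no-AA list these densities were 36.5 and 36.7 at the Tet loci and 37.2 and 42.5 at the Dnmt loci. These differences were not tested. The gene intervals are approximate: those of Tet1 and Dnmt3a, at 120 and 165 kb, are longer than the RefSeq genes of 82.9 and 113 kb. Those of Dnmt1 and Dnmt3l, at 47 and 18 kb, are shorter than the genes of 52.7 and 21.3 kb. Flank peaks can lie over neighbouring genes. On GRCm38.p6 the next protein-coding genes, on the 5′ and then the 3′ side, were Slc25a16 and Ccar1 for Tet1, Cxxc4 and Ppa2 for Tet2, Dguok and Bola3 for Tet3, and S1pr2 and Eif3g for Dnmt1. They were Dtnb and Pomc for Dnmt3a, Commd7 and Mapre1 for Dnmt3b, and Aire and Icosl for Dnmt3l. The nearest peaks on either side of the 50 kb limit were both at Tet3 and AA: 1 with 14 tags and a fold of 11.64 lay 49.6 kb from the interval, and 1 with 39 tags and a fold of 4.53 lay 50.6 kb from it.

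**Figure D2:**
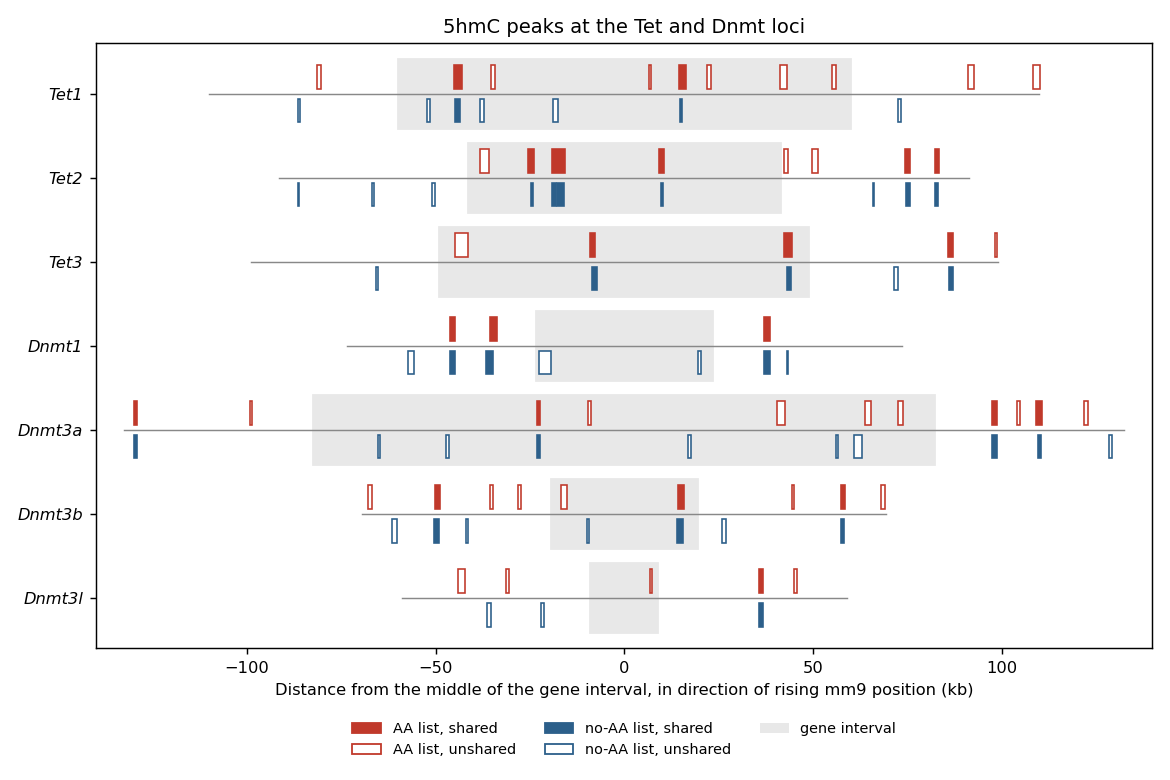
Position of each peak, drawn to scale as its distance in kb from the middle of the gene interval (grey), with AA peaks above and no-AA peaks below each line, which spans the window. Filled boxes overlap a peak of the other list; Dnmt1 has no AA box inside its interval and Dnmt3l no no-AA one.

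Part of the peaks at these loci were called at the same place in both lists. Of the AA peaks, 21 of 51 overlapped a no-AA peak by at least 1 bp, or 41.2% (Clopper-Pearson 27.6% to 55.8%), beside 47.5% in the whole list. Of the no-AA peaks, 22 of 49 were shared, or 44.9% (30.7% to 59.8%), beside 43.6%. Both shares are near the background. The median number of tags was 45 in shared and 29.5 in unshared AA members, and 37.5 and 26 in the other list. Absence from a list means that no peak was called there and does not show that 5hmC was lacking.

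The peaks at these loci were longer and held more tags than those of the whole lists, at a lower fold enrichment. Fold enrichment is the authors' own value per peak, the ratio of tags to the local background that the caller set in that library. The median AA member was 1240 bp long with 38 tags and a fold of 6.59, against 1032 bp, 27 tags and 7.86 in the whole list. The median no-AA member was 874 bp long with 31 tags and a fold of 5.93, against 778 bp, 28 tags and 7.05. The fold was below the whole list's median in 37 of 51 and 34 of 49 members, where 50% is the background by construction. Tag density is given as tags per kb of peak and per 1000000 kept tags of the library, called scaled tags per kb. It had a median of 2.53 over the AA members and 2.22 over their whole list, and of 1.94 and 1.90 in the no-AA list.

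At stricter cutoffs the lists differed more. With the p limit at 1e-10, 14 AA members remained past it (27.5%, interval 15.9% to 41.7%), beside 22.9% of the whole list, and 4 no-AA members (8.16%, 2.27% to 19.6%), beside 18.4%. Their ratio was 3.50 (1.10 to 14.6) and that of all such peaks 1.12, which lies within this interval. The 14 peaks were spread over all 7 loci, and 13 of them overlapped a no-AA peak of any strength, beside 76.1% of all AA peaks at this cutoff. The 4 no-AA ones lay at Tet2, Dnmt3a and Dnmt3l and 4 of 4 were shared, beside 79.3%. Among unshared members 1 of 30 AA peaks, at Dnmt3l, and 0 of 27 no-AA peaks passed this cutoff, beside 10.4% and 6.76% of all unshared peaks. Folds of 10 or more were found in 6 AA members (11.8%, beside 21.7%), at Tet3, Dnmt3a and Dnmt3b. Of the 49 no-AA members 0 had such a fold, beside 10.4% of the whole list. A limit of 3 counts allows a share of up to 6.12%, and the exact interval one of up to 7.25%. Depth and fragment length differ between the libraries together with the label, and their part in these values cannot be told apart from it.

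**Figure D3:**
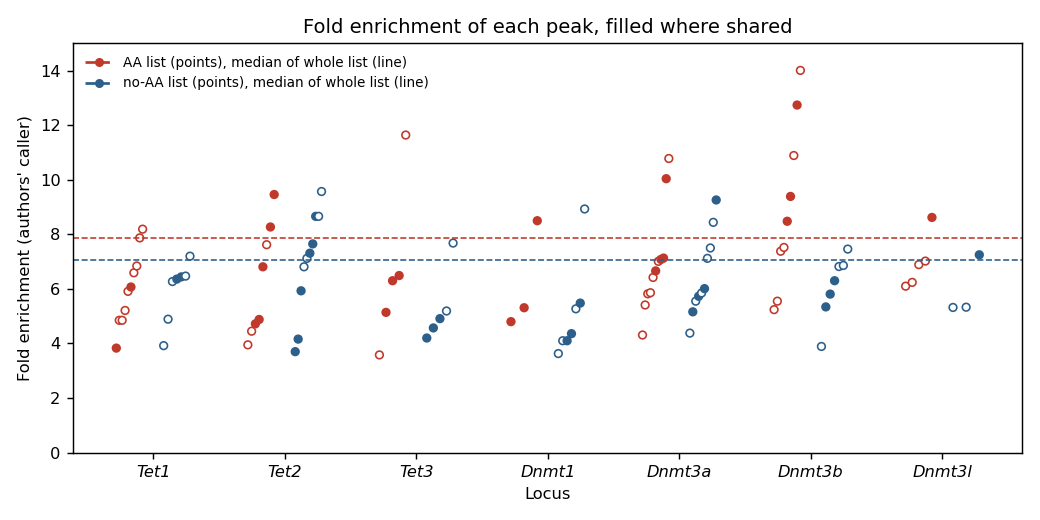
Fold enrichment of every peak (vertical axis, the authors' value within each list) by locus, AA in red and no-AA in blue, filled where shared. Dashed lines mark the medians of the whole lists, 7.86 and 7.05; the highest point is the Dnmt3b peak at 14.01.

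Tet1, an oxidase that carries a CXXC domain for CpG-rich DNA, had 10 AA and 7 no-AA peaks, of which 7 and 5 lay inside its interval. In each list 2 of them were shared. The stronger pair, at chr10:62274796-62276890 in the AA list, had 93 AA tags (Poisson interval 75.1 to 114) and 53 no-AA tags (39.7 to 69.3). Its density was 3.73 against 2.35 scaled tags per kb, a log2 ratio of 0.66 (0.16 to 1.18), and both lists placed the summit within 1 bp. The other pair (chr10:62334621-62336436) had 43 and 21 tags, with a density ratio of -0.19 (-0.97 to 0.64) between an AA peak of 1816 bp and a no-AA peak of 503 bp. Between 62341853 and 62376135, toward the 5′ side of the interval, 3 AA peaks of 30, 38 and 34 tags had no counterpart. The last of these, at chr10:62374992-62376135, had the highest fold of the AA list there, 8.19. In the no-AA list the highest fold was 7.20, at an unshared peak of 23 tags on the 3′ side (chr10:62233482-62234104).

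Tet2, the oxidase without a CXXC domain of its own, was the locus with the most shared peaks by number. These were 5 of 8 AA peaks (62.5%, interval 24.5% to 91.5%) and 6 of 10 no-AA peaks (60%, 26.2% to 87.8%). The whole lists had shares of 47.5% and 43.6%. By share, Dnmt1 was higher in the AA list (100% of 3 peaks) and Tet3 equal in the no-AA list (60%). A broad AA peak of 3388 bp inside the interval (chr3:133148322-133151709) held 111 tags and overlapped 2 no-AA peaks with 113 tags between them. Not scaled for depth, these sums are nearly equal, while the no-AA library held 1.55 times the kept tags of the AA library. Beside it, the pair at chr3:133142098-133143491 had 35 and 19 tags, folds of 9.46 and 8.66, and a log2 density ratio of 0.16 (-0.68 to 1.05). On the 5′ side, the pair at chr3:133241886-133243319 had 56 and 37 tags and a ratio of 0.58 (-0.04 to 1.22). The pair at chr3:133249798-133250875 had 25 and 32 tags and the lowest ratio of all 20 pairs, -0.21 (-1.03 to 0.59). The flanks differed in makeup: the 5′ flank held 4 AA and 3 no-AA peaks, and the 3′ flank 0 and 3. Among the latter was the peak of highest fold in the no-AA members, 9.57 with 17 tags (chr3:133100666-133101175). Just past the 5′ edge of the interval lay an AA peak of 27 tags with a fold of 7.62 (chr3:133209727-133210794) and no counterpart within 22.7 kb.

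Tet3, known as the oxidase of the oocyte and zygote, had 5 peaks in each list, 3 of them shared. The pair near the 5′ end of the interval (chr6:83403398-83405345) had 58 and 36 tags and a log2 density ratio of 0.45 (-0.18 to 1.09). The pair at chr6:83352012-83353336 had 37 and 44 tags and a ratio of 0.29 (-0.38 to 0.96), with summits 934 bp apart. The pair on the 5′ side (chr6:83446684-83448065) had 45 and 29 tags and the third highest ratio of all pairs, 0.72 (0.02 to 1.45). The AA list also held its longest member here, 3540 bp with 144 tags at a fold of 3.58 (chr6:83316136-83319675), with no counterpart. The fold of 11.64 was the highest at this locus and belonged to an AA peak of 14 tags (chr6:83459343-83459851), also unshared. In the no-AA list it was 7.68, at an unshared peak of 15 tags (chr6:83295128-83295711).

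Dnmt1, the maintenance methyltransferase, was the locus where the numbers of peaks lay furthest apart, 3 AA and 7 no-AA. All 3 AA peaks were shared (Clopper-Pearson 29.2% to 100%), beside 47.5% of the whole AA list. All 3 lay in the flanks, so the interval, 47 of the window's 147 kb, held 0 AA and 2 no-AA peaks. These were a broad peak of 3080 bp with 163 tags, the largest tag count of all members, at a fold of 3.63 (chr9:20711919-20714998), and a peak of 26 tags (chr9:20754108-20754962). The 3 flank pairs were denser in the AA library when scaled to kept tags, beside 75.2% of all such pairs in the genome. With no scaling or with scaling to the tags inside peaks 2 of 3 were denser, beside 12.1% and 18.8%. The pair at chr9:20771452-20773057 had 85 and 63 tags, or 4.44 against 2.30 scaled tags per kb. Its log2 ratio of 0.95 (0.46 to 1.44) was the highest of the 20 pairs. The pair at chr9:20688351-20689590 had 45 tags in both libraries, folds of 8.50 and 4.36, and a ratio of 0.65 (0.03 to 1.28). The pair at chr9:20698911-20700690 had 63 and 72 tags and a ratio of 0.48 (-0.03 to 0.99), with summits 1007 bp apart. The highest fold in the no-AA list, 8.93, was at an unshared peak of 16 tags (chr9:20777614-20778002).

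Dnmt3a, a de novo methyltransferase, had the most AA peaks, 11, and 10 no-AA ones. Inside the interval only the pair at chr12:3809331-3810216 was shared, with 21 and 25 tags. The other 4 AA and 5 no-AA peaks there did not overlap, and the nearest of them were 0.773 kb apart, with 47 and 75 tags. The 3′ flank held 2 shared pairs of 30 tags or more. The first, at chr12:3930030-3931408, had 50 and 51 tags and folds of 10.04 and 6.01, with a log2 density ratio of 0.45 (-0.15 to 1.04). The other, at chr12:3941663-3943188, had 60 and 33 tags and the second highest ratio, 0.76 (0.13 to 1.42). The highest AA fold, 10.78, was at an unshared peak of 20 tags on the 5′ side (chr12:3733298-3733889). The highest no-AA fold, 9.26, was at a shared peak of 17 tags (chr12:3702656-3703306), and the highest unshared one 8.44 with 15 tags (chr12:3785407-3785938).

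Dnmt3b, the de novo methyltransferase known for its high expression in ES cells and the early embryo, had 9 AA and 7 no-AA peaks. The flanks held 7 and 5 of them, but the interval is only 39 of the window's 139 kb. Peaks per Mb were 51.3 inside the interval in both lists, and 70 (AA) and 50 (no-AA) in the flanks. The 5′ flank held the highest fold of all members, 14.01, at an AA peak of 21 tags (Poisson interval 13.0 to 32.1; chr2:153458906-153459666) with no counterpart within 5.86 kb. The highest no-AA fold was 7.46, at an unshared peak of 22 tags inside the interval (chr2:153484739-153485259). All 3 shared pairs had a higher fold in the AA list, beside 70.2% of all such pairs in the genome. The pairs had folds of 9.39 against 5.81 at chr2:153444286-153445575, 8.48 against 5.34 at chr2:153508834-153510259 and 12.74 against 6.30 at chr2:153551881-153552914. Their tags were 50 and 58, 43 and 56, and 38 and 31. Their log2 density ratios were 0.49, 0.30 and 0.61, and each interval included 0.

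Dnmt3l, the cofactor without catalytic activity, had 5 AA and 3 no-AA peaks in the smallest window. Inside the interval, 18 of the window's 118 kb, lay 1 AA peak of 19 tags (chr10:77525806-77526497) and no no-AA one. The single shared pair, on the 3′ side (chr10:77554760-77555897), had 34 and 52 tags in peaks of 1138 and 1139 bp. Its densities were 2.51 and 2.48 scaled tags per kb, a log2 ratio of 0.02 (-0.65 to 0.67), and its folds of 8.62 and 7.25 were the highest of the locus in each list. On the 5′ side the lists alternated, with 2 AA and 2 no-AA peaks and no overlap. The strongest of these were an AA peak of 57 tags at a fold of 7.02 (chr10:77474938-77476714) and a no-AA peak of 48 tags at 5.33 (chr10:77482769-77483740).

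Over all 7 loci, 20 pairs joined a peak that overlapped a single peak of the other list. Scaled to kept tags, density was higher in the AA library in 18 of the 20, or 90%, beside 75.2% of all 26954 such pairs in the genome. This count depends on the scaling: it was 7 of 20 scaled to the tags inside peaks, beside 18.8%, and 5 of 20 with no scaling, beside 12.1%. With no scaling it was 1 of 2 pairs at Tet1, 0 of 4 at Tet2 and 1 of 3 at Tet3. At the Dnmt loci it was then 2 of 3 at Dnmt1, 1 of 4 at Dnmt3a, 0 of 3 at Dnmt3b and 0 of 1 at Dnmt3l. Scaled to kept tags, the log2 ratios of the 20 pairs had a median of 0.45, beside 0.22 over all pairs. The interval of this median, by order statistics over the pairs, was 0.29 to 0.61. It treats the pairs as independent, though all come from 1 library per group and have the same scaling. So it does not show whether the members differ from the genome. No member passed 2-fold in either direction, beside 1.47% higher and 0.0223% lower in the genome. Scaled to kept tags, the interval of a pair lay above 0 in 5 of 20 and below it in 0, beside 11.1% and 0.26% of all pairs. It included the genome's median of 0.22 in 19 of 20, beside 94.7%. The pair outside it was the Dnmt1 pair of 85 and 63 tags. With no scaling the median turned to -0.18, beside -0.41 over all pairs, and with scaling to the tags inside peaks to -0.080, beside -0.31. A scaling moves the members and the genome alike. The summits of the 20 pairs lay a median of 118 bp apart, beside 113 bp over all pairs, and within 200 bp of each other in 12 of 20, beside 66.8%.

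**Figure D4:**
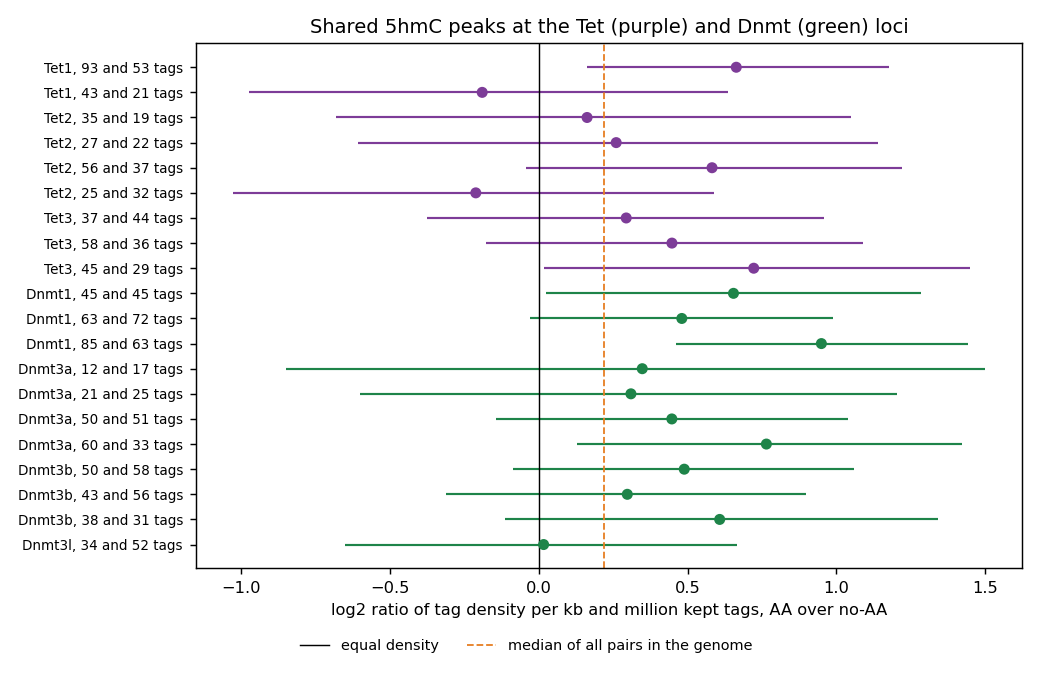
Log2 ratio of tag density, AA over no-AA (horizontal axis), for the 20 shared pairs at Tet (purple) and Dnmt (green) loci, labelled with AA and then no-AA tags. Lines are 95% exact intervals for counting error; 18 points lie above 0 with this scaling to kept tags (7 scaled to tags inside peaks, 5 unscaled), and the dashed line marks the median of all pairs, 0.22.

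Tet and Dnmt pairs ranked in opposite order by the measures of tags. In density the median was 0.29 over 9 Tet pairs and 0.48 over 11 Dnmt pairs. In tags per peak, scaled to kept tags and not divided by length, it was 1.26 and 0.44. By definition these 2 measures differ only by the ratio of peak lengths. The AA peak was the longer one in 9 of 9 Tet pairs and 5 of 11 Dnmt pairs, beside 76.2% of all pairs. By tags per peak 8 of the 20 pairs were over 2-fold higher in the AA library and 0 over 2-fold lower, beside 20.5% and 0.408%. Fold enrichment was higher in the AA list in 15 of 20 pairs, 6 Tet and 9 Dnmt, beside 70.2% of all pairs. The median log2 ratio of the folds was 0.24 and that of all pairs 0.21. The difference between the families was not tested.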

How the data were processed

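Both lists of peaks were made by the authors with BWA 0.5.9-r16 on mm9 and MACS 1.4.2, per the submitters' processing notes. Per the file headers, each was called on 1 library without control at a p cutoff of 1e-05, with a regional background over 10000 bp and 1 tag of 101 bp kept per position (24.5% and 32.1% of tags were removed). The deposited tag counts are whole and unscaled, the deposited score is 10 times −log10 p, and the deposited fold enrichment is a ratio to the caller's background. The 2 headers name the other sample, and the record's assignment was kept. Members were found by midpoint, and overlap and tag ratios were computed with Python 3.11.15, pandas 2.3.3, NumPy 2.4.6 and SciPy 1.17.1 after tests on simulated data. Intervals are 95% and exact (Poisson, Clopper-Pearson, or conditional on the sum of both counts), and by order statistics for a median. The labels name no molecular identifiers, so PCR copies cannot be told from separate molecules. Named in each locus were the peak of highest fold in each list, each pair with 30 tags or more in 1 library and the highest unshared fold, and over all loci the 3 highest and 3 lowest ratios. Further peaks named were chosen after their values were seen, as the broad peaks at Tet2, Tet3 and Dnmt1 were. The members, lists and alternatives were chosen with earlier results of these data known. No mm9 annotation was used here, so other genes of the pathway were not placed. Strand and neighbours come from GRCm38.p6.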

Additional observations from a re-analysis of the deposited data

How the results depend on the processing

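The log2 ratio of peak numbers, 0.06, became 1.81 with a p of at most 1e-10 (14 against 4 peaks). With a fold of at least 10 it could not be given, since the no-AA list had 0 peaks. The density relative to the genome, 1.83 and 1.60, became 0.706 in the no-AA list with a p of at most 1e-10. With a fold of at least 10 it became 0.994 and 0. With both lists held to that p, the shared percentages became 21.4 (3 of 14) and 75 (3 of 4), and inside-to-flank density became 0.491 and 0. The log2 tag density ratio of 0.45 became -0.080 scaled to tags in peaks, -0.18 unscaled, -0.45 with the lists exchanged as the headers name them, 0.77 as tags per peak and 0.24 by fold enrichment. These strict cutoffs leave few peaks, and the scalings are constant shifts; for the other values the cause was not tested. The other 24 alternatives stayed within the interval of the main value. Scaling to tags before duplicate removal and lists of equal length were chosen after seeing the data. No paired analysis was possible because there is a single library in each group, and so none could be left out.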

Other observations

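The 30 unshared AA members lay a median of 9.74 kb from the closest no-AA peak (0.773 to 29.99 kb), and the 27 unshared no-AA members 9.68 kb from the closest AA one (0.773 to 33.4 kb).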
